A study of Mus musculus with 9 samples.

Results

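Precursor tRNA trailer fragments, the class called tRF-1, were described in complexes of mouse retinal pigment epithelium, choroid and sclera. The members were all rows of the deposited fragment table with the type tRF-1 and no mitochondrial name. There were 15 such fragments, of 200 fragments listed in all, and they came from the trailers of 6 nuclear tRNA precursors. The table listed 16 tRF-1 fragments, the remaining 1 being mitochondrial. The 9 libraries were 3 controls, 3 from day 3 and 3 from day 7 after laser, all from the C57BL/6 strain. Mice were 6 to 8 weeks old when a 532 nm laser of 110 mW and 100 ms broke Bruch's membrane, the sheet beneath the pigment epithelium, which models choroidal neovascularization. The labels name no treatment for the controls, no genetic change in any group, and no animal or number of animals behind each library. A p-value here therefore reflects how much these libraries vary, and that variation may be technical. The table holds tRNA fragments only, so the tissue was not checked against marker genes.

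RNA polymerase III transcribes a tRNA gene past the mature 3' end until it reaches a run of T. The endonuclease RNase Z (ELAC2) then cuts the precursor just after the mature 3' end, which frees the trailer, and the La protein is known to bind the U run at the end of such transcripts. A tRF-1 is this freed trailer, so it is never part of the mature tRNA, unlike 5' and 3' tRNA fragments, and its level is often read beside tRNA transcription and processing.

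The 6 flanks that follow the mature tRNA are shown because they define every member. They are the 40 nt after the mature 3' end in the precursor sequences of the authors' table, written 5' to 3' on the transcribed strand, with the T run or runs in which listed fragments end in capitals. Chromosome positions of the precursors are not used here.
iMet-CAT-1: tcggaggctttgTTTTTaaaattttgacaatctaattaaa
Thr-CGT-1: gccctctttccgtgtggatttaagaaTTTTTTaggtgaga
Arg-ACG-1-3: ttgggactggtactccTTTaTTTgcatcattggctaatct
Arg-ACG-3: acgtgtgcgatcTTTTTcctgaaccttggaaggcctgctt
Cys-GCA-3-3: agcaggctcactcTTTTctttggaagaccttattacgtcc
His-GTG-2-7: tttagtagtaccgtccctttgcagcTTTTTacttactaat

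Each of the 15 fragments began at the first base of its flank, as the class is defined, and all 15 ended inside a T run. Fragments and flanks come from the same table, so this is a description of the members and no check of the label. The fragments were 15 to 32 nt long, had a GC content of 37.5% to 50%, and each aligned to 1 precursor in the deposited alignments. They ended after 2 T in 1 case, 3 T in 6, 4 T in 5, 5 T in 2 and 6 T in 1. Among the 185 other fragments, 13 (7.03%) ended in TT or more. The iMet-CAT-1 trailer was listed at 15, 16 and 17 nt, Thr-CGT-1 at 29, 30, 31 and 32 nt, and Arg-ACG-1-3 at 19, 22 and 23 nt. The Arg-ACG-3 trailer was listed at 15 and 16 nt, Cys-GCA-3-3 at 16 and 17 nt, and His-GTG-2-7 at 29 nt only. Lengths of 1 trailer share their 5' end and all but a few bases, so they are not independent of each other.

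The ladder of ends is shown for the trailer with the most lengths, Thr-CGT-1, with the terminal T run in capitals.
29 nt: gccctctttccgtgtggatttaagaaTTT
30 nt: gccctctttccgtgtggatttaagaaTTTT
31 nt: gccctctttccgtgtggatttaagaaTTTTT
32 nt: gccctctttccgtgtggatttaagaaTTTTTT

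The motif TTTT was present on the transcribed strand of 5 of the 6 flanks (83.3%), on the opposite strand of 1, and on either strand of 5. It was present in 15.8% of 32851 windows of 40 nt at the start of RefSeq promoters of build GRCm38.p6 on the gene's strand, in 16.7% on the opposite strand and in 29.3% on either. Every member ends in a T run of its flank, and promoter windows are not flanks of tRNA genes. The percentages are therefore a description and cannot show enrichment. The flank without TTTT was that of Arg-ACG-1-3, which carries a pair of TTT runs separated by 1 base. Its listed fragments ended at both runs, 1 at the first and 2 within the second:
19 nt: ttgggactggtactccTTT
22 nt: ttgggactggtactcctttaTT
23 nt: ttgggactggtactcctttaTTT

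Libraries held 1204173 to 2155977 mapped reads, and the members took 521 to 1546 counts in each. In CPM, the authors' counts scaled to mapped reads, the 15 fragments together reached 523.7 to 1027 in controls, 244 to 493 at day 3 and 517 to 1284 at day 7. The means were 723 ± 268, 361 ± 125 and 859 ± 390 CPM (SD, n = 3 each), so the day 3 libraries lay below all others. The class made up 0.0723% ± 0.0268 of mapped reads in controls. A read covers a whole fragment, so CPM was not divided by length, but ligation and amplification can favour some sequences over others.

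The order of the libraries within a group was shared by many members. Control replicate 1 was the highest control for 15 of 15 members, but for 37 of 185 other fragments (20%). Day 7 replicate 1 was the highest day 7 library for 14 of 15 members, against 108 of 185 others. At day 3 it was less uniform, with replicate 3 the highest for 11 of 15 members, replicate 1 for 3 and replicate 2 for 1. Among the 185 others, day 3 replicate 3 was the highest for 83 (44.9%), replicate 2 for 68 and replicate 1 for 34. Mapped reads were 1223377 in control replicate 1, against 1749792 and 2155977 in the other controls. They were 1204173 in day 7 replicate 1, against 1791720 and 1449949, and 2012274, 2138312 and 1638381 at day 3. The shallowest library was thus the one with the most member CPM in each of the 3 groups, and the part of depth in the results was not tested.

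**Figure D1:**
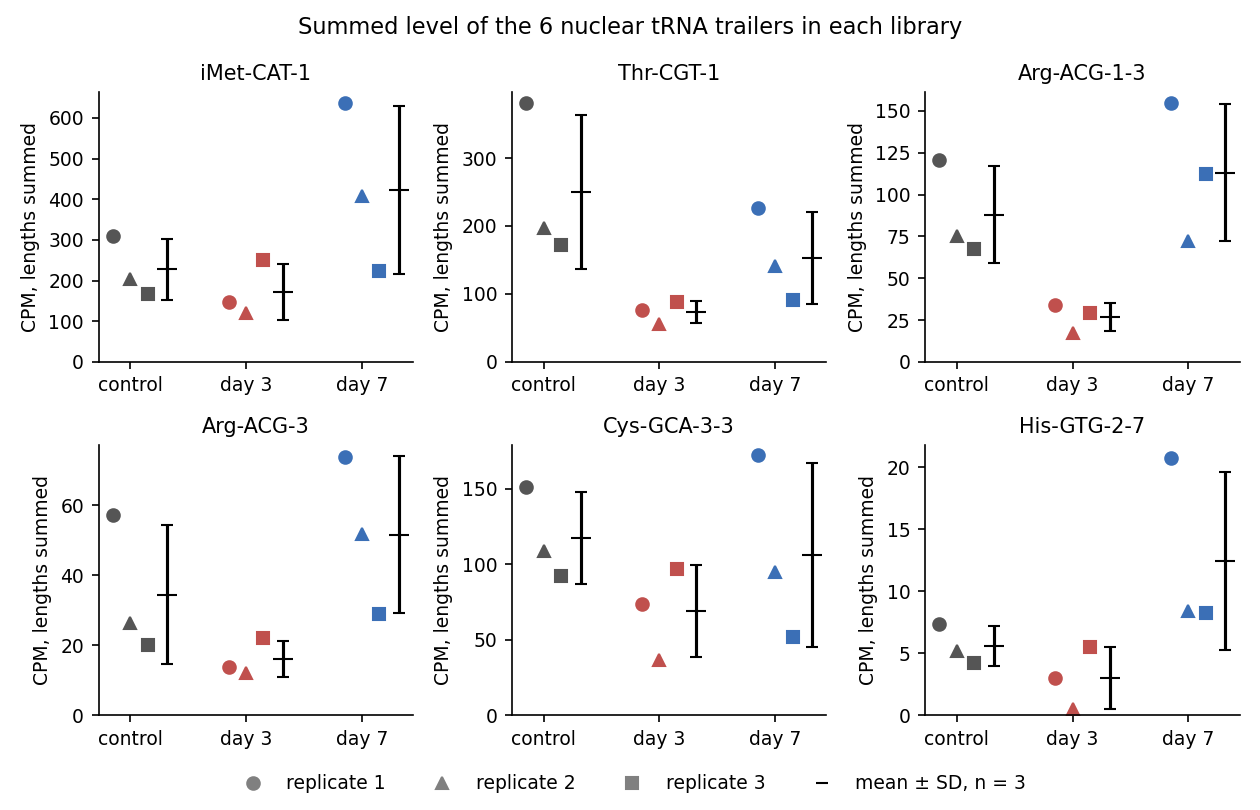
The y axes give the CPM of each nuclear trailer with its listed lengths summed, and the x axes give the group; symbols are libraries by replicate number, and lines are the mean ± SD of 3 libraries. The day 3 libraries of Thr-CGT-1 and Arg-ACG-1-3 lie below every control, and control replicate 1 is the highest control in all 6 panels.

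The initiator tRNA, iMet-CAT, carries the methionine that starts every cytoplasmic protein. Its trailer was measured at 309.8, 205 and 167 CPM in control replicates 1, 2 and 3, at 146, 121 and 251 CPM at day 3, and at 637, 407 and 223 CPM at day 7. Day 3 overlapped with control, and day 7 overlapped with both. The trailer rose from day 3 to day 7 by 1.55 on the log2 scale (SE 0.431, adjusted p = 0.0113, edgeR's quasi-likelihood test with Benjamini-Hochberg adjustment). From control the log2 change was -0.59 at day 3 (adjusted p = 0.296) and 0.95 at day 7 (adjusted p = 0.216), and neither passed. The adjusted p of the rise was 0.0588 without day 3 replicate 1 and 0.0506 without day 3 replicate 2. Scaled to the sum of listed counts, without the TMM factors of the main fit, the change was 0.89 (adjusted p = 0.110).

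Thr-CGT decodes a threonine codon, and its trailer was the most abundant of the 6 in the control mean. It was measured at 381, 197 and 173 CPM in controls, at 77.0, 56.1 and 88.5 CPM at day 3, and at 226, 141 and 91.7 CPM at day 7. All day 3 libraries were below all others. At day 3 the trailer fell by 1.98 on the log2 scale (SE 0.427, adjusted p = 0.00284, edgeR). It passed under all 16 alternatives, among them a fit with no filter that repeats the main fit. It rose by 1.32 from day 3 to day 7 (SE 0.421, adjusted p = 0.0204, edgeR), a call lost without any of 4 libraries (day 3 replicates 1 and 2, day 7 replicates 1 and 2), at adjusted p = 0.0716 to 0.0750. Scaled to the sum of listed counts, without TMM factors, that rise was 0.66 (adjusted p = 0.221). Day 7 against control gave -0.66 (adjusted p = 0.415).

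The 2 arginine trailers come from genes of the same anticodon, ACG, and have different sequences. Arg-ACG-1-3 was measured at 121, 75.4 and 67.3 CPM in controls, at 33.8, 17.3 and 29.3 CPM at day 3, and at 154, 72.6 and 112 CPM at day 7. Its day 3 libraries were below all others, and day 7 overlapped with control. It fell by 1.92 at day 3 on the log2 scale (SE 0.404, adjusted p = 0.00247, edgeR) and rose by 2.38 from day 3 to day 7 (SE 0.408, adjusted p = 0.000366). Both calls were kept under all 15 alternatives, among them the fit with no filter, which repeats the main fit.

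Arg-ACG-3 was measured at 57.2, 26.3 and 19.9 CPM in controls, at 13.9, 12.2 and 21.97 CPM at day 3, and at 73.9, 51.9 and 29.0 CPM at day 7. Day 3 overlapped with control but not with day 7. It rose by 1.97 from day 3 to day 7 (SE 0.442, adjusted p = 0.00297, edgeR). The trailer kept this call under all 15 alternatives, among them the repeated fit with no filter. Its log2 change at day 3 was -1.31, which passed (SE 0.443, adjusted p = 0.0388, edgeR). That call was lost in 9 of 15 alternatives, among them DESeq2 (adjusted p = 0.0574) and limma-voom (adjusted p = 0.0830). The 9 also include the fits without control replicate 1 (-0.58, adjusted p = 0.332), without day 3 replicate 1 (adjusted p = 0.128) and without day 3 replicate 2 (adjusted p = 0.131).

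The trailer of Cys-GCA, a tRNA that inserts cysteine, did not pass in any of the 3 comparisons in the fit of all 9 libraries. It was measured at 151, 109 and 92.3 CPM in controls, at 73.5, 36.5 and 96.4 CPM at day 3, and at 172, 94.9 and 51.7 CPM at day 7. All pairs of groups overlapped. The log2 changes were -0.97 at day 3 (adjusted p = 0.0799), -0.09 at day 7 (adjusted p = 0.962) and 0.88 from day 3 to day 7 (adjusted p = 0.0987, edgeR). The first passed with only the 2 groups compared in the fit (-1.03, adjusted p = 0.0371) and without day 3 replicate 3 (adjusted p = 0.0449), and the last without day 7 replicate 3 (adjusted p = 0.0281).

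The trailer of His-GTG, a tRNA that inserts histidine, was the rarest of the 6. It had 9 counts in each control, 6, 1 and 9 at day 3, and 25, 15 and 12 at day 7. The lowest of these, 1 count in day 3 replicate 2, has an exact 95% Poisson interval of 0.0253 to 5.57 counts, which covers counting error only. In CPM, day 7 (20.8, 8.37 and 8.28) lay above control (7.36, 5.14 and 4.17) and day 3 (2.98, 0.468 and 5.49). The rise from day 3 to day 7 was 2.34 on the log2 scale (SE 0.736, adjusted p = 0.0186, edgeR), and it was lost without day 3 replicate 1, without day 3 replicate 2 or without day 7 replicate 1, at adjusted p = 0.0506 to 0.114. Scaled to the sum of listed counts, without TMM factors, it was 1.69 (adjusted p = 0.108). No listed fragment had a highest CPM below 20.1, and this trailer reached that level in day 7 libraries only. A fragment listed through its day 7 libraries alone had to be high there, so the rise and its p are a description only.

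Over the 6 summed trailers, 3 fell and 0 rose at day 3 in edgeR, where 15.2% of the 191 rows of that table were called lower. DESeq2 and limma-voom each called 2 trailers at day 3, without Arg-ACG-3. At day 7 against control 0 passed in edgeR, DESeq2 or limma-voom, where 4.19% of rows were called, and 1, iMet-CAT-1, had an unadjusted p below 0.05. From day 3 to day 7, 5 rose and 0 fell, where 19.9% of rows were called higher. The 5 include His-GTG-2-7, which reached the smallest highest CPM of the listed fragments, 20.1, in day 7 libraries only. Without day 3 replicate 1 or without day 3 replicate 2, 2 trailers rose in this comparison, and without day 7 replicate 1, 3 did. In these 3 fits of single fragments, those called in either direction fell from 69 of 200 to 45, 39 and 44. The day 3 libraries enter both of the comparisons in which trailers were called. In bulk tissue, fewer cells of a type and less RNA per cell cannot be told apart.

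**Figure D2:**
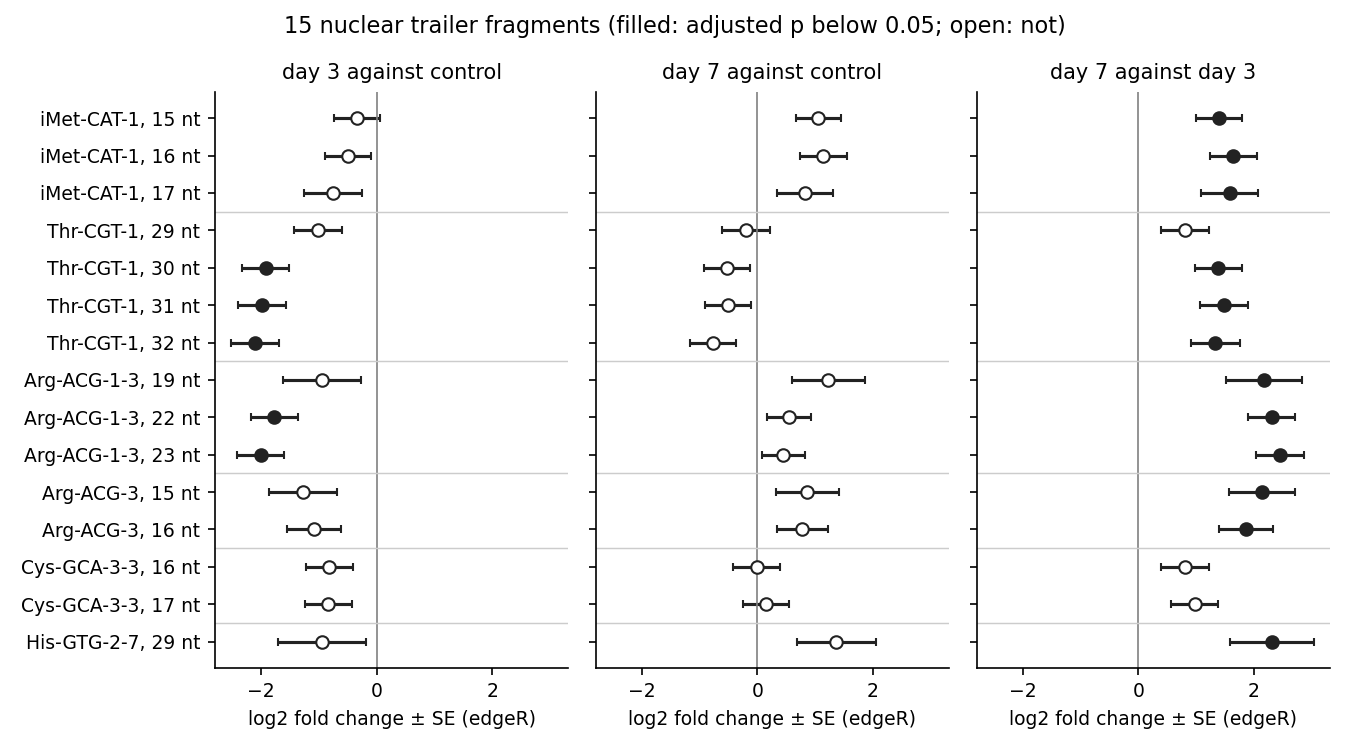
The x axes give the log2 fold change of each of the 15 fragments with its SE (edgeR, 3 libraries a group), in 3 comparisons, and rows are grouped by trailer; filled points passed the adjusted threshold of 0.05. All 15 points lie below 0 at day 3 with 5 filled, and all 15 lie above 0 from day 3 to day 7 with 12 filled.

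Fragment by fragment, 5 of 15 fell and 0 rose at day 3, where 11.5% of all 200 fragments were called lower. The 5 were the 30, 31 and 32 nt Thr-CGT-1 fragments and the 22 and 23 nt Arg-ACG-1-3 fragments. All 15 log2 changes were below 0, from -2.11 to -0.34, with a median of -1.01 against -0.04 over all fragments. The CPM ranges of control and day 3 did not overlap for 7 of 15 members, all lower at day 3, where 19.5% of all fragments had this pattern. Those 7 were every length of Thr-CGT-1 and Arg-ACG-1-3, and no length of another trailer.

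The shortest lengths of both trailers had log2 changes nearer to 0 at day 3 than their longer forms, a difference that was not tested. The 29 nt Thr-CGT-1 fragment was at 49.0, 26.3 and 23.7 CPM in controls and 13.9, 19.6 and 17.1 CPM at day 3, a log2 change of -1.01 (SE 0.418, adjusted p = 0.0780, edgeR). Its longest form, the 32 nt fragment, was at 78.5, 36.0 and 34.8 CPM in controls and 12.4, 8.42 and 15.3 CPM at day 3. The 32 nt fragment was also the 1 member lower at day 7 (17.2 to 34.0 CPM) than in every control, where 12% of all fragments had that pattern, and its log2 change was -0.77 (adjusted p = 0.289). The 19 nt Arg-ACG-1-3 fragment, which ends at the first T run, had a log2 change of -0.95 at day 3 (SE 0.680, adjusted p = 0.294).

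At day 7 against control, 0 of 15 fragments passed in edgeR or limma-voom, where 4% of all fragments were called in edgeR. DESeq2 also called 0, but it gave no adjusted p for the 15 nt Arg-ACG-3, 19 nt Arg-ACG-1-3 and 29 nt His-GTG-2-7 fragments. Of the 15 log2 changes 10 were above 0, and the median was 0.54 against 0.09 over all fragments. The 15 and 16 nt iMet-CAT-1 fragments had an unadjusted p below 0.05, with log2 changes of 1.06 (adjusted p = 0.126) and 1.14 (adjusted p = 0.114). The 15 nt fragment was at 126, 78.3 and 62.2 CPM in controls and 242, 150.1 and 95.2 CPM at day 7, so the groups overlapped. Without control replicate 1, 2 members passed as higher in this comparison, among 12 of all 200 fragments called higher (6%), against 7 with that library.

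From day 3 to day 7, 12 of 15 fragments rose and 0 fell, where 23% of all fragments were called higher. All 15 log2 changes were above 0, from 0.81 to 2.46, with a median of 1.58 against 0.15 over all fragments. The 3 that did not pass were the 29 nt Thr-CGT-1 fragment (0.81, adjusted p = 0.132) and the 16 and 17 nt Cys-GCA-3-3 fragments (0.81 and 0.98, adjusted p = 0.128 and 0.0651). The 23 nt Arg-ACG-1-3 fragment had the largest change among members. It was at 7.95, 6.55 and 7.32 CPM at day 3 and 54.0, 21.8 and 27.6 CPM at day 7, with no overlap, and rose by 2.46 (SE 0.412, adjusted p = 0.000684, edgeR). The ranges of day 3 and day 7 did not overlap for 8 of 15 members, all higher at day 7, where 15% of all fragments had this pattern.

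These counts depend on the libraries, on the scale and on how the table was made. Without day 3 replicate 2, 5 members rose from day 3 to day 7 in place of 12, and the fragments called higher in all fell from 46 to 24 of 200 (12%). The 200 listed fragments held 75.8% ± 0.179 of mapped reads in controls, 58.8% ± 3.05 at day 3 and 77.0% ± 1.67 at day 7, so every day 3 library had a smaller listed share than every other library. Scaled to the sum of listed counts, 2 of 15 members rose from day 3 to day 7, among 9 of 200 fragments called higher (4.5%) and 63 called lower, and the median over all fragments moved from 0.15 to -0.51. With mapped totals and no TMM factors, the rises of the Thr-CGT-1 and His-GTG-2-7 trailers missed the threshold (adjusted p = 0.0598 and 0.0515). As a share of listed counts, the members together held 0.0953% ± 0.0354 in controls, 0.0619% ± 0.0236 at day 3 and 0.112% ± 0.0531 at day 7, and the groups overlapped. No listed fragment had a highest CPM below 20.1, and 3 members reached that level in day 7 libraries only: the 15 nt Arg-ACG-3, the 19 nt Arg-ACG-1-3 and the 29 nt His-GTG-2-7 fragments. All 3 of these rose from day 3 to day 7, as did 9 of the 12 others, and a fragment listed through its day 7 libraries alone had to be high there.

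The make-up of the trailer counts does not depend on the scale of a library. It is given as a description, since an exact test of 3 libraries against 3 cannot go below p = 0.1. Shares within a library add up to a fixed total, so a change in any trailer moves the shares of the others. The share of iMet-CAT-1 among all trailer counts was 30.2%, 33.2% and 31.98% in controls, 42.1%, 49.7% and 50.9% at day 3, and 49.6%, 52.5% and 43.3% at day 7. Every library after laser was above every control, with means of 31.8% ± 1.52, 47.6% ± 4.81 and 48.5% ± 4.72 (SD, n = 3 each). The share of Thr-CGT-1 was 37.1%, 31.9% and 32.9% in controls, 22.2%, 23.03% and 17.97% at day 3, and 17.6%, 18.1% and 17.8% at day 7. Every library after laser was below every control, so the order of these trailers in the group means was Thr-CGT-1 then iMet-CAT-1 in controls and the reverse at both times.

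The count ratio of iMet-CAT-1 to Thr-CGT-1, chosen after its values were seen and given with no test, was 0.813, 1.04 and 0.970 in controls. It was 1.90, 2.16 and 2.83 at day 3 and 2.82, 2.89 and 2.44 at day 7. The ratio in every library after laser was thus above that in every control, and the times overlapped with each other. Among the other trailers, Cys-GCA-3-3 had a lower share at day 7 (11.9% ± 1.72) than in any control (16.7% ± 1.67) or day 3 library (18.6% ± 3.22). Its own log2 change at day 7 against control was -0.09 (adjusted p = 0.962, edgeR). Arg-ACG-3 had a higher share at day 7 (6.02% ± 0.590) than in any control (4.55% ± 0.914) or day 3 library (4.49% ± 0.493). Arg-ACG-1-3 had a lower share at day 3 (7.59% ± 1.94) than in any control (12.3% ± 0.536), and at day 7 its share was 12.0%, 9.36% and 21.8%.

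**Figure D3:**
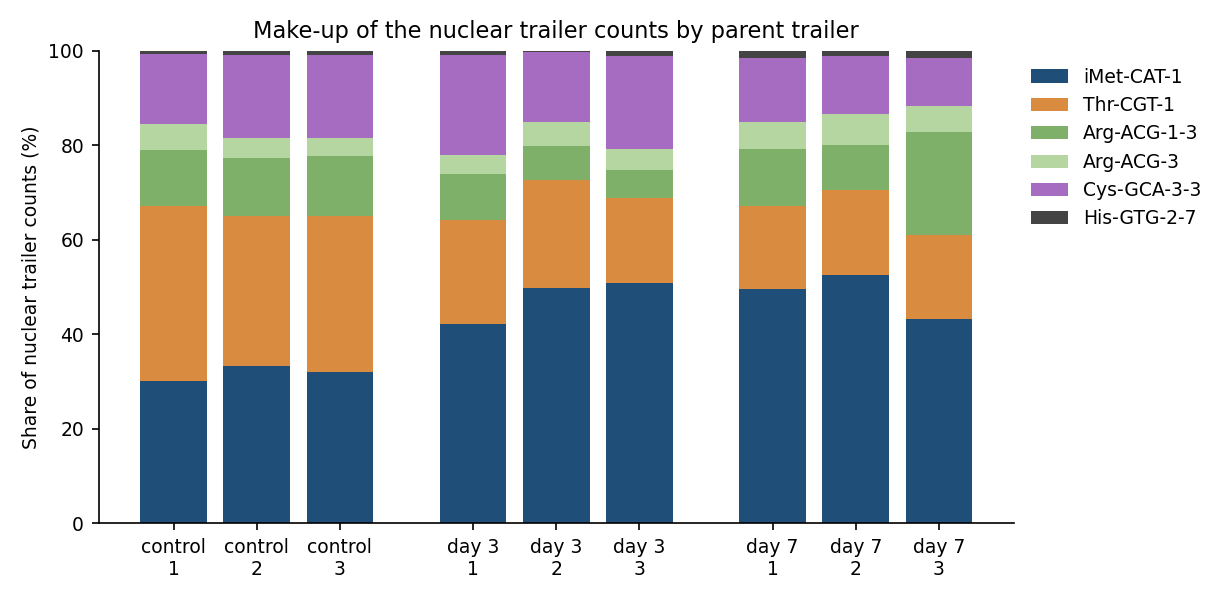
The y axis gives the share of all nuclear trailer counts held by each of the 6 trailers, stacked to 100% for each library on the x axis. The iMet-CAT-1 share is 30.2% to 33.2% in controls and 42.1% to 52.5% after laser, and the Thr-CGT-1 share is 31.9% to 37.1% in controls and 17.6% to 23.03% after laser.

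Where within the T run the fragments ended was compared by the mean length of each trailer, weighted by counts, which also does not depend on scale. In controls, the iMet-CAT-1 trailer was 38.7% at 15 nt, 51.5% at 16 nt and 9.80% at 17 nt. The Thr-CGT-1 trailer was 13.3% at 29 nt, 33.3% at 30 nt, 33.7% at 31 nt and 19.7% at 32 nt. Most reads of these trailers thus ended before the last T of the run, and 73.7% of Cys-GCA-3-3 reads were of the 16 nt form, 1 T short of the run's end.

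No comparison of lengths passed the threshold. Over 15 comparisons of 5 trailers, the groups did not overlap in 1. The mean length of Thr-CGT-1 was 30.6 nt in controls and 30.4 nt at day 3 (exact two-sided p = 0.1, the smallest that 3 against 3 allows, adjusted p = 0.75). The 29 nt form was 24.1% ± 9.44 of Thr-CGT-1 reads at day 3, against the 13.3% in controls. Leaving out 1 library at a time, 1 to 3 of the 15 did not overlap.

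**Figure D4:**
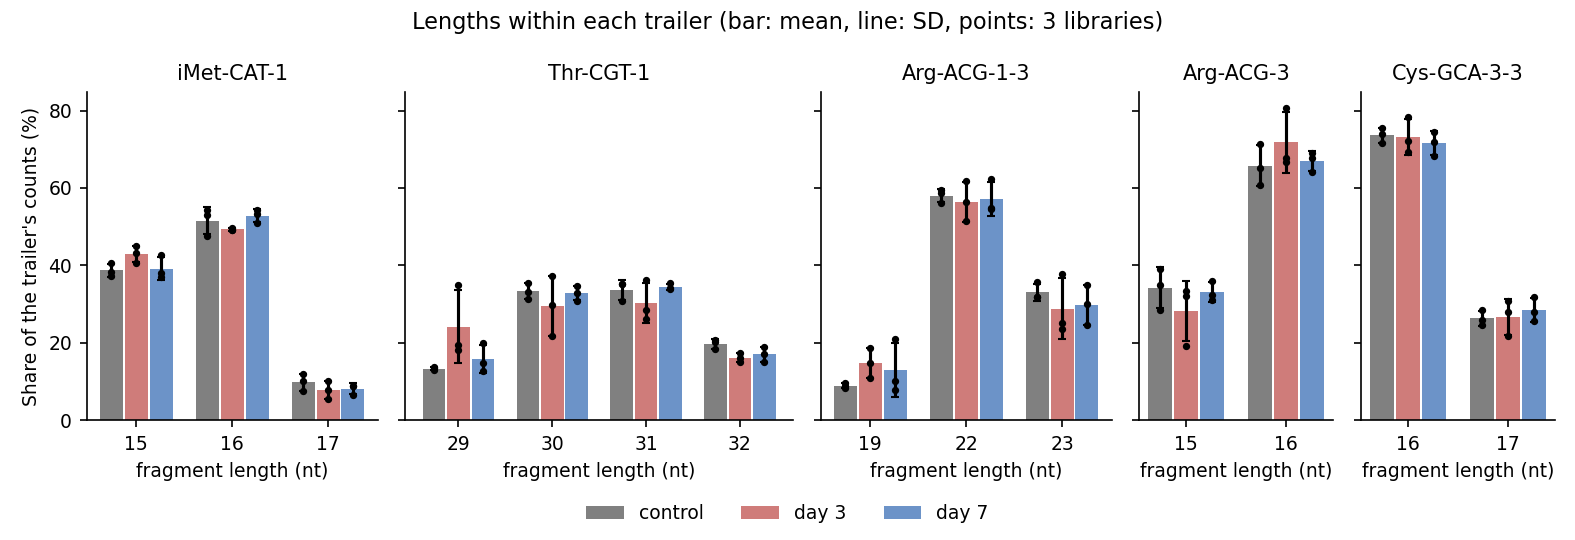
The y axis gives the share of a trailer's counts at each listed length in nt (x axes) for the 5 trailers with several lengths; bars are means, lines SD and points the 3 libraries of a group. The 29 nt share of Thr-CGT-1 averages 24.1% at day 3 and 13.3% in controls, and the remaining lengths mostly overlap between groups.

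Fragments of mature tRNAs of the same anticodons were set beside the trailers. There were 10 of them, from iMet-CAT, His-GTG and Cys-GCA, and none was listed for Arg-ACG or Thr-CGT. At day 3, 2 of 10 fell and 0 rose, with a median log2 change of -0.63, where 11.5% of all 200 fragments were called lower. At day 7 against control 0 passed, where 4% were called. From day 3 to day 7, 4 rose, with a median of 1.05, where 23% were called higher. These counts come from the same fit and libraries as those of the trailers.

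The initiator tRNA was also listed as a fragment of its mature form. This 31 nt 5' fragment was at 30.2, 40.6 and 35.7 CPM in controls, at 21.9, 11.7 and 6.71 CPM at day 3, and at 9.97, 15.6 and 15.9 CPM at day 7. All libraries after laser were below all controls. It fell by 1.40 at day 3 (SE 0.447, adjusted p = 0.0290, edgeR), and its log2 change was -1.01 at day 7 (adjusted p = 0.214) and 0.38 from day 3 to day 7 (adjusted p = 0.536). The count ratio of trailer to 5' fragment was 10.2, 5.04 and 4.69 in controls, 6.68, 10.4 and 37.4 at day 3, and 63.9, 26.04 and 14.1 at day 7. Day 7 was above control in every library, while day 3 overlapped with both. The ratios of 37.4 and 63.9 rest on 11 and 12 counts of the 5' fragment, in day 3 replicate 3 and day 7 replicate 1. The ratio of trailer to 5' fragment was chosen after its values were seen and has no test.

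For cysteine, the 17 nt 3' fragment of the Cys-GCA-2 group was at 43.3, 41.1 and 54.7 CPM in controls and 6.96, 15.4 and 13.4 CPM at day 3. At day 7 it was at 42.4, 34.0 and 9.66 CPM, which overlapped with control and with day 3. It fell by 2.00 at day 3 (SE 0.423, adjusted p = 0.00337, edgeR) and rose by 1.52 from day 3 to day 7 (adjusted p = 0.0124), while the Cys-GCA-3-3 trailer passed in neither. The ratio of the trailer to this fragment was 2.61 ± 0.903 in controls, 6.71 ± 4.12 at day 3 and 4.07 ± 1.29 at day 7, with overlap. The other listed Cys-GCA fragment, the 32 nt 5' fragment of Cys-GCA-1, passed in no comparison. Its log2 changes were 0.46 at day 3, 0.94 at day 7 and 0.48 from day 3 to day 7 (adjusted p = 0.382, 0.188 and 0.330, edgeR). For histidine, the rise of the trailer, listed through its day 7 libraries alone, is a description only. From day 3 to day 7, the 28, 29, 30 and 34 nt 5' fragments of His-GTG-2 did not pass. Their log2 changes were 0.78, 1.27, 0.84 and 0.67 (lowest adjusted p = 0.0779, edgeR). The other 3 listed 5' fragments of His-GTG rose, where 23% of all fragments were called higher. They were the 31 nt fragment of His-GTG-1 (1.43, adjusted p = 0.0194) and the 31 and 32 nt fragments of His-GTG-2 (1.35 and 1.37, adjusted p = 0.0124 and 0.0103).

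Among broader classes, the 33 nuclear 3' side fragments, which contain the mature 3' end, had 30 log2 changes below 0 at day 3 and 27 above 0 from day 3 to day 7. At day 3, 12 of 33 fell and 0 rose, with a median of -1.12, and from day 3 to day 7 14 rose and 0 fell, with a median of 0.92. Of the 146 fragments of the 5' side, 20 rose and 3 fell at day 3 (median 0.39), and 15 rose and 23 fell from day 3 to day 7 (median -0.17). The mitochondrial tRF-1, from tRNA Gly-TCC, passed in no comparison, with log2 changes of -0.43, -0.56 and -0.13 (adjusted p = 0.489, 0.543 and 0.837). These are descriptions, and the difference between classes was not tested.

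**Figure D5:**
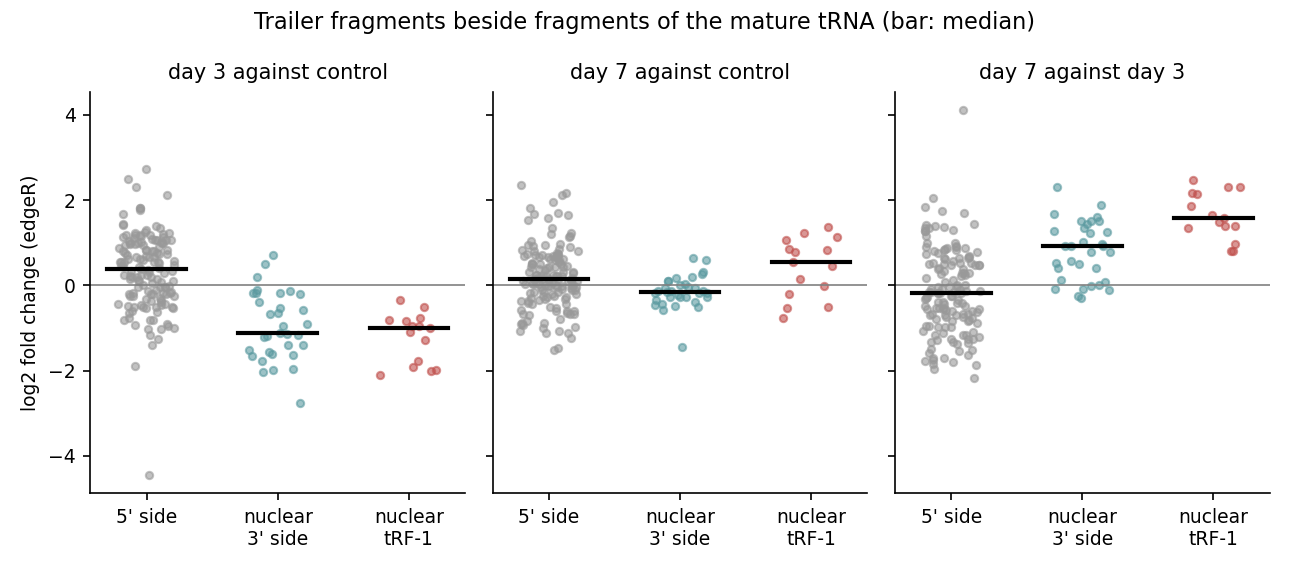
The y axis gives the log2 fold change (edgeR, 3 libraries a group) of single fragments of the 5' side (146), the nuclear 3' side (33) and the nuclear tRF-1 class (15) in 3 comparisons; bars are medians. The tRF-1 median is -1.01 at day 3, 0.54 at day 7 and 1.58 from day 3 to day 7, against -1.12, -0.16 and 0.92 for the 3' side.

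For each trailer the fragment outside the class with the most similar log2 CPM over the 9 libraries was found among 184. For iMet-CAT-1 and Arg-ACG-3 it was the 32 nt 5' fragment of His-GTG-2 (Pearson r = 0.835 and 0.853). For Thr-CGT-1 it was a 22 nt 3' fragment of Ala-CGC-1 (r = 0.917), and for Cys-GCA-3-3 an 18 nt 3' fragment of Ser-AGA-1 (r = 0.903). For Arg-ACG-1-3 it was a 16 nt 5' fragment of Ser-TGA-1 (r = 0.866), and for His-GTG-2-7 the 34 nt 5' fragment of Gly-TCC-1 (r = 0.849). These values describe 9 libraries that share depth and group, with no test.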

How the data were processed

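Small RNA was sequenced in 9 libraries, and the labels do not say how many complexes or animals each holds. Per the labels' protocols, bound amino acids, cyclic phosphates and m1A and m3C marks were removed before ligation, and products of 134 to 160 bp were cut from a gel, which limits the lengths seen. The submitters' processing notes name FastQC, Bowtie, edgeR and build mm10, without versions. The deposited table gives counts of reads and CPM per fragment and library, the latter scaled by the authors to mapped reads, per the file headers. It lists 200 fragments, and 7 empty lines were not used. Fragments below 20.1 CPM in every library were not analysed here.

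Mapped totals were taken as count over CPM. Counts were tested with edgeR 4.0.16 (R 4.3.3) on the whole table, with TMM factors of 0.749 to 1.14 and a mean per group over all 9 libraries. The filterByExpr step kept all 200 fragments, so all 15 members were tested. The common biological coefficient of variation was 34.9%. Two-sided quasi-likelihood F tests were adjusted by Benjamini-Hochberg over 200 fragments, or over 191 rows with each trailer's lengths summed, at a threshold of 0.05. An SE is the log2 change over the square root of F. All members and trailers were described, and members, lists and tests were chosen with earlier results of these data known. Alternatives were DESeq2 1.42.0, limma-voom (limma 3.58.1), other scalings and filters, fits of 2 groups, a replicate block and each library left out. The scaling to listed counts used no TMM factors. Likeness used log2 CPM with a prior count of 2. The code was tested on simulated data. Nuclear tRNA genes were not located, and matches of these short sequences elsewhere in the genome were not tested. Replicate numbers were not used to pair libraries.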

Additional observations from a re-analysis of the deposited data

Results flagged for a closer look

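The changes from day 3 to day 7 are listed because the effect against control differed between the times, by a test of that difference (edgeR's quasi-likelihood test, adjusted p below 0.05, 3 libraries a group). Both effects share the controls, so the difference is that of day 7 against day 3. For the summed trailers the log2 difference was 2.38 for Arg-ACG-1-3, 1.97 for Arg-ACG-3, 2.34 for His-GTG-2-7, 1.32 for Thr-CGT-1 and 1.55 for iMet-CAT-1. For single fragments it was 2.15 and 1.87 for the 15 and 16 nt Arg-ACG-3 fragments and 2.17, 2.32 and 2.46 for the 19, 22 and 23 nt Arg-ACG-1-3 fragments. It was 1.40, 1.65 and 1.58 for the 15, 16 and 17 nt iMet-CAT-1 fragments, and 1.39, 1.48 and 1.34 for the 30, 31 and 32 nt Thr-CGT-1 fragments. It was 2.31 for the 29 nt His-GTG-2-7 fragment, which had 1 count in day 3 replicate 2. That fragment and the 15 nt Arg-ACG-3 and 19 nt Arg-ACG-1-3 fragments reached 20.1 CPM in day 7 libraries only. Fragments listed through day 7 alone had to be high there, so their differences are a description only. Against control, the log2 values of all 6 trailers were below 0 at day 3, and at day 7 those of Thr-CGT-1 (-0.66) and Cys-GCA-3-3 (-0.09) were below 0 and the other 4 above, none of which passed at day 7.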

How the results depend on the processing

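Of 954 alternative values for single fragments and trailers, 876 kept their direction and their side of the threshold. A call was lost in 51 and gained in 11, and 16 reversed. Only results that had passed in the main fit could lose a call, and most had not. There, 5, 0 and 12 of 15 members and 3, 0 and 5 of 6 trailers had passed. The order is day 3, day 7, and from day 3 to day 7. The 876 include the fit with no filter, which repeats the main fit because the filter kept every row, so its values could not change. They also include DESeq2 values that had no adjusted p. A mean of at least 100 CPM left 2 members among 70 fragments. Of these 2 members, 0 fell at day 3, 1 rose at day 7 and 2 rose from day 3 to day 7. In the same comparisons 22, 8 and 31 of the 70 fragments were called in either direction. Of 2 trailers left, 1 fell at day 3 and 2 rose from day 3 to day 7. Scaled to the listed counts, which also drops TMM factors, 2 fragments and 2 trailers rose from day 3 to day 7. With mapped totals and no TMM factors, 3 trailers did. Leaving out 1 library, 5 to 6 members were called at day 3, 0 to 2 at day 7 and 5 to 13 from day 3 to day 7. Over all 200 fragments, 22 to 54, 3 to 17 and 39 to 72 were called. For trailers the counts were 2 to 4, 0 to 0 and 2 to 6, the last 2 being without day 3 replicate 1 or 2. Of the length comparisons, 1 to 3 did not overlap. The cause of these shifts was not tested, other than fewer fragments or libraries by construction.

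The reversed log2 values were small, and none had passed. The 15 nt iMet-CAT-1 fragment at day 3 was at 0.11 scaled to listed counts, and ranged from -0.61 to 0.088 with 1 library left out. At day 7 against control, the 17 nt Cys-GCA-3-3 fragment was at -0.064 with mapped totals and no TMM, -0.081 scaled to listed counts with no TMM, and -0.097 without Gly-GCC fragments. With 1 library left out it ranged from -0.063 to 0.43, the 16 nt fragment from -0.31 to 0.30 and their trailer from -0.36 to 0.27. The 29 and 31 nt Thr-CGT-1 fragments ranged from -0.57 to 0.28 and from -0.80 to 0.074.

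Of 9 pairs of libraries with the same replicate number, 2 had deviations correlated above 0.1 and 7 did not, so the numbers were not taken to pair them. With the replicate block, 5, 0 and 12 members and 2, 0 and 5 trailers were called at day 3, at day 7 and from day 3 to day 7. Over all 200 fragments, 47, 8 and 64 were called. The trailer that lost its call was Arg-ACG-3 at day 3 (adjusted p = 0.0825). Depth limits His-GTG-2-7 most, at 1 to 25 counts a library.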

Other observations

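The summed member counts of the controls were 1257, 1079 and 1129 in libraries of 1223377, 1749792 and 2155977 mapped reads, so the counts varied less than the depth. The share of mapped reads was 0.103%, 0.0617% and 0.0524%. At day 3 the counts were 699, 521 and 807 and at day 7 1546, 1389 and 749. All day 3 counts were below all control counts before any scaling, and day 7 replicate 3 was also below the controls. The part of depth or library quality in this was not tested.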
